A study of Mus musculus with 4 samples.

Results

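The genes described here are the globins and erythroid genes of the mouse male urogenital sinus (UGS), the embryonic tissue from which the prostate, urethra and bladder outlet develop. The members were chosen by symbol from a fixed list of 10 genes, and 8 of these were read from the 25819 rows of the deposited table: the adult-type globins *Hba-a1*, *Hba-a2* and *Hbb-b1*, the embryonic globins *Hba-x*, *Hbb-y* and *Hbb-bh1*, and the non-globin genes *Alas2* and *Slc4a1*. The listed genes *Hbb-b2* and *Ahsp* were not analysed here. The study compared RNA-Seq libraries of whole UGS from wild type embryos and from *Tbx18GFP/GFP* embryos, in which both copies of the T-box factor gene *Tbx18* carry a GFP knock-in null allele, at E16.5 and at E18.5. The embryos were male, from lines bred onto the B6C3-F1 hybrid background, and the null allele was constitutive rather than confined to a cell type. Each of the 4 groups was 1 library of RNA pooled from 3 embryos. With 1 library per group there was no replicate check, no test between groups was possible, and no p-value or replicate error is given. Values are FPKM, reads per kilobase of transcript per unit of library depth, so levels are compared between genes per length throughout.

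Hemoglobin is built from alpha-type and beta-type globin chains, each bound to heme. Primitive red cells of the yolk sac use the embryonic chains, encoded by *Hba-x*, *Hbb-y* and *Hbb-bh1*, and definitive red cells made in the fetal liver use the adult-type chains. The UGS itself makes no red cells, and RNA of the whole tissue includes that of the blood in its vessels. In such bulk samples, fewer red cells and less globin RNA per red cell cannot be told apart.

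The promoters of an adult-type and an embryonic gene of each globin cluster and of *Alas2* are shown because these genes moved together in some comparisons and apart in others. *Hbb-bt* stands in for the deposited row *Hbb-b1*, which lies at a like distance from *Hbb-y*, as given with the cluster. Each line is the 150 bases before the RefSeq start in GRCm38.p6, 5′ to 3′ on the gene's own strand, with the motif letters in capitals. The motifs searched on both strands were the CCAAT box (CCAAT), the TATA box (TATAAA or TATAAG), the CACCC box (CCACCC or CACACCC) and the GATA motif (TGATAA or AGATAA, and TGATAG or AGATAG), and no motif of one kind contains one of another kind.
Hba-a1, chr11:32283522-32283671, plus strand: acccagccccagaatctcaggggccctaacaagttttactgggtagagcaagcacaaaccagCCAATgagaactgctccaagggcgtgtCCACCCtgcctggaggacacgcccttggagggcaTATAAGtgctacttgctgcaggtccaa
Hba-x, chr11:32276450-32276599, plus strand: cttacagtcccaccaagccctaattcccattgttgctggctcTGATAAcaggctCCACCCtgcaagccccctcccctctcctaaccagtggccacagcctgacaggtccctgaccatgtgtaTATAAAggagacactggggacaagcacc
Hbb-bt, chr7:103813924-103814073, minus strand: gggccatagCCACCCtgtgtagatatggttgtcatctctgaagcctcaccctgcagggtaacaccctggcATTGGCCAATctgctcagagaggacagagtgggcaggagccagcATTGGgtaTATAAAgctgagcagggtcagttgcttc
Hbb-y, chr7:103853208-103853357, minus strand: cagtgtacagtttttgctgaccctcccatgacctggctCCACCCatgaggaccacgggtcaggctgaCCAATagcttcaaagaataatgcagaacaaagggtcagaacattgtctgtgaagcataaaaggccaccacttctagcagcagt
Alas2, chrX:150547267-150547416, plus strand: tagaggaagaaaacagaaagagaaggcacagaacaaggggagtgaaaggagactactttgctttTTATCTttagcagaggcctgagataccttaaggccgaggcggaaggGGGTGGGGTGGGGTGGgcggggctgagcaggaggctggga

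The *Hba-a1* window held a CCAAT box, a CACCC box and a TATA box, and the *Hba-a2* window shared an identical run of 147 of its 150 bases. *Hba-x* held a CACCC box, a TATA box and a GATA motif. *Hbb-bt* held all 3 kinds found in *Hba-a1*, *Hbb-y* held CCAAT and CACCC, and *Alas2* held CACCC and GATA letters, both on the reverse strand. Of 32851 RefSeq promoters in the table, windows of the same length held CCAAT in 24.5%, the TATA letters in 10.7%, the CACCC letters in 23.2%, the GATA letters in 16%, and CCAAT, TATA and CACCC together in 0.578%. A match is a run of letters and not evidence of binding.

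The depth, estimated from the FPKM of single reads on 15 to 27 olfactory receptor genes per library, was about 28500000 mapped reads in the E18.5 wild type library and between 51500000 and 62700000 in the other 3. The E18.5 wild type library stood apart. Over all rows that reached 1 FPKM in both libraries, the median log2 ratio was 0.29 for mutant over wild type at E18.5 and -0.33 for E18.5 over E16.5 in wild type, against 0.01 between genotypes at E16.5 and -0.06 between stages in the mutant. Since the E18.5 wild type library enters both the E18.5 genotype comparison and the wild type stage comparison, these are not independent of each other. *Tbx18* had 2.50 to 3.47 FPKM in the 4 libraries, a row total that does not separate the targeted transcript from an intact one and so does not check the labels. All 12 UGS markers listed, among them *Acta2*, *Trp63* and *Hoxd13*, had at least 1 FPKM in either library of each comparison.

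*Hba-a1* and *Hba-a2* encode the adult alpha chain and lie on chromosome 11, at 32183672 to 32184486 and at 32196492 to 32197310 in the positions of the deposited table. *Hba-a1* had 8812 FPKM in E16.5 wild type, 14169 in E16.5 mutant, 3159 in E18.5 wild type and 12700 in E18.5 mutant UGS. *Hba-a2* had 5700, 9253, 2055 and 11186 FPKM in the same order. For both genes the E18.5 wild type library was lowest and the 2 mutant libraries were above the 2 wild type libraries. *Hbb-b1*, an adult beta chain gene on chromosome 7 at 110961042 to 110962437, had 3348, 5337, 632 and 4509 FPKM, with the same order of genotypes. In E16.5 wild type UGS, *Hba-a1*, *Hba-a2* and *Hbb-b1* ranked 3, 4 and 10 among all rows by FPKM.

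**Figure D1:**
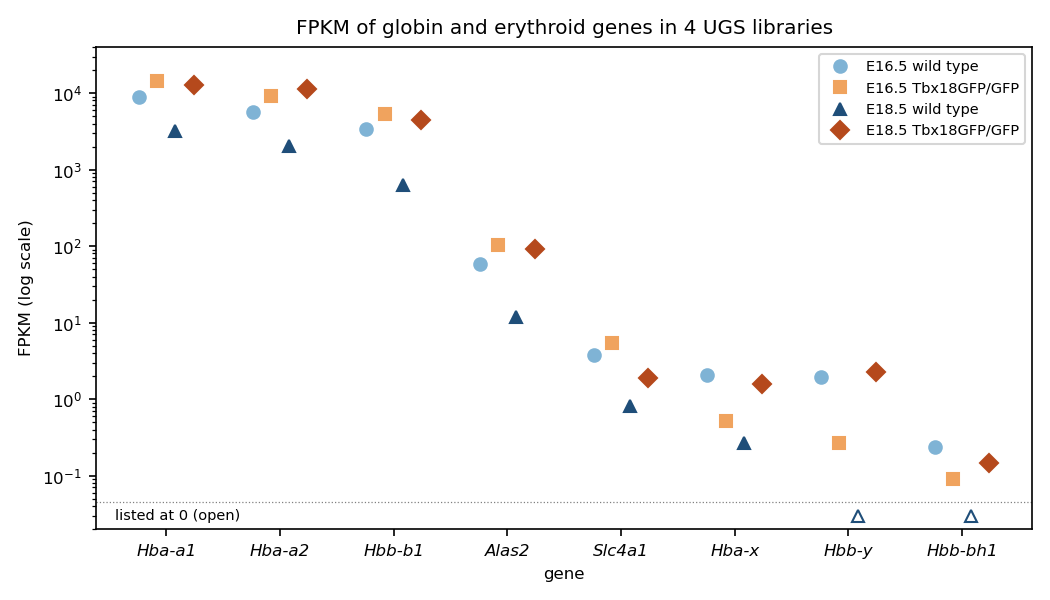
FPKM (log scale) of 8 globin and erythroid genes, 1 point per pooled library (E16.5 wild type circles, E16.5 mutant squares, E18.5 wild type triangles, E18.5 mutant diamonds); open points mark genes listed at 0. The E18.5 wild type library is lowest for every gene, and *Hba-x* and *Hbb-y* are higher in E16.5 wild type than in E16.5 mutant UGS, the reverse of the adult-type globins.

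At E16.5 the adult-type globins were higher in mutant than in wild type UGS by nearly the same factor. The fold was 1.61 for *Hba-a1*, 1.62 for *Hba-a2* and 1.59 for *Hbb-b1*, and their summed level was 17860 FPKM in wild type and 28759 in mutant UGS (log2 ratio 0.69). Each of these folds was above the middle 95% of all rows that reached 1 FPKM in both libraries, a band that ended at a log2 ratio of 0.40. At E18.5 the folds were larger and less alike, 4.02 for *Hba-a1*, 5.44 for *Hba-a2* and 7.14 for *Hbb-b1*. The sum there was 5846 FPKM in wild type and 28396 in mutant UGS (log2 ratio 2.28).

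At E18.5 the wild type values were low, and ratios over all rows varied with transcript length and GC content. Relative to the median of all rows, the E18.5 log2 ratios were 1.72 for *Hba-a1*, 2.16 for *Hba-a2* and 2.55 for *Hbb-b1*. The annotated *Hba-a1* transcript has 57.2% GC and 699 bases. Among annotated rows that reached 1 FPKM in a library, 87.1% have less GC and 3.10% are shorter. The fitted trend for rows of such length and GC content was 0.80 in the E18.5 log2 ratio. For rows like *Hbb-y*, with 48.8% GC and 633 bases, it was 0.42. The trend was fitted to ratios that were not centred, so it includes the shift of all rows, whose median was 0.29. Subtracting the trend left 1.20 for *Hba-a1* and 1.68 for *Hba-a2*, with no value for *Hbb-b1*, which had no annotated length. At E16.5 the same trend was 0.05 for both alpha genes. The parts of length and base composition in the globin difference were not tested further.

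Between stages, adult-type globins were lower at E18.5 than at E16.5 in wild type UGS and about level in mutant UGS. In wild type the level was 2.79 times lower for *Hba-a1*, 2.77 times lower for *Hba-a2* and 5.30 times lower for *Hbb-b1*. After subtraction of the length and GC trend the log2 ratios of the alpha genes were -0.66 and -0.70, so neither kept a 2-fold difference. In the mutant the log2 ratios were -0.16 for *Hba-a1*, 0.27 for *Hba-a2* and -0.24 for *Hbb-b1*, and the sum moved from 28759 to 28396 FPKM. Without the E18.5 wild type library, E18.5 mutant UGS can be set only against E16.5 wild type UGS, which differs in stage as well as genotype. In that comparison *Hba-a1* was 1.44-fold, *Hba-a2* 1.96-fold and *Hbb-b1* 1.35-fold higher in the mutant library.

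*Hba-x*, on chromosome 11 at 32176600 to 32178116, encodes the zeta-type chain that pairs with embryonic beta chains. It had 2.06 FPKM in E16.5 wild type, 0.510 in E16.5 mutant, 0.267 in E18.5 wild type and 1.58 in E18.5 mutant UGS. These values were those of about 51, 11, 3 and 32 reads at an effective length of 394.2 bases. That length was chosen so that each value lay within 0.05 of a whole number, so the near-whole fit does not check the counts. The annotated transcript has 801 bases, and a longer effective length would give higher counts. *Hba-x* was thus high in one library of each genotype, unlike its neighbour *Hba-a1* in the same cluster.

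*Hbb-y*, the epsilon-type gene at the far end of the beta-globin cluster (chromosome 7, 111000268 to 111001721), had 1.97, 0.266, 0 and 2.26 FPKM in the same order of libraries. The matching read estimates were 51, 6, 0 and 48. It had the same 2 high and 2 low libraries as *Hba-x*, although the genes lie on chromosomes 7 and 11. *Hbb-bh1*, the other embryonic beta-type gene (110990152 to 110991676), had 0.237, 0.0907, 0 and 0.145 FPKM, or about 6, 2, 0 and 3 reads.

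At E16.5 the embryonic globins were lower in mutant UGS, opposite to the adult-type genes. *Hba-x* was 4.04 times lower, with an exact 95% counting interval of 2.08 to 8.59. *Hbb-y* was 7.40 times lower, with an interval of 3.18 to 21.1. These intervals and those that follow cover counting error only, for 1 pooled library of each group. For *Hbb-bh1* the interval of the mutant to wild type ratio, 0.0378 to 2.14, included equal levels, and no difference was detectable at this depth.

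At E18.5 the embryonic globins were higher in mutant UGS, against a wild type library that held only 3 of their reads. *Hba-x* was 5.91-fold higher, with an interval of 1.85 to 30.1. *Hbb-y* was listed at 0 in wild type UGS and at 2.26 FPKM in mutant UGS. For a count of 0, 3 reads were taken as the limit, here 0.255 FPKM. The upper exact 95% limit of a count of 0 is higher, at 3.69 reads. *Hbb-bh1* was also listed at 0 in wild type UGS. Its 0.145 FPKM in mutant UGS lay under the 0.261 FPKM of 3 reads in wild type UGS, so a difference was not detectable.

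Between the mutant stages, which do not involve the shallow library, *Hba-x* was 3.09-fold (interval 1.52 to 6.80) and *Hbb-y* 8.50-fold (interval 3.63 to 24.3) higher at E18.5 than at E16.5. The log2 ratio of the adult-type sum in the same libraries was -0.018. In wild type UGS *Hba-x* was 7.72 times lower at E18.5 than at E16.5, with an interval of 2.50 to 38.7. *Hbb-y* went from about 51 reads to 0. *Hba-x* and *Hbb-y* were therefore lower with stage in one genotype and higher with stage in the other, a difference between genotypes that was not tested. For *Hbb-bh1* the intervals of the E18.5 to E16.5 ratio, 0 to 1.87 in wild type and 0.183 to 19.1 in the mutant, both included equal levels.

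*Alas2* encodes the erythroid form of 5-aminolevulinate synthase, which starts heme synthesis in red cell precursors, and lies on chromosome X at 146981960 to 147005165. It had 59.2 FPKM in E16.5 wild type, 103 in E16.5 mutant, 12.0 in E18.5 wild type and 91.5 in E18.5 mutant UGS. The libraries fell in the order of *Hba-a1* and *Hbb-b1*. The mutant level was 1.74-fold higher at E16.5 and 7.66-fold higher at E18.5, or 2.65 in log2 relative to the median of all rows and 2.34 after subtraction of the length and GC trend. *Alas2* values rested on about 626 reads in the E18.5 wild type library and on 6823 to 10312 in the others.

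*Slc4a1* encodes band 3, the chloride-bicarbonate exchanger and skeleton anchor of the red cell membrane, on chromosome 11 at 102210134 to 102226595. It had 3.76, 5.47, 0.818 and 1.86 FPKM in the same order of libraries. The E16.5 libraries were both above the E18.5 libraries, which was true of no other member. The mutant level was 1.45-fold higher at E16.5 and 2.28-fold higher at E18.5. Relative to the median of all rows the E18.5 log2 ratio was 0.90, and after subtraction of the trend it was 0.70, both short of 2-fold. Between mutant stages *Slc4a1* was 2.93 times lower at E18.5, while *Alas2* was 1.12 times lower.

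The member counts can be read against all rows with at least 1 FPKM in either library, a filter that *Hbb-bh1* did not pass in any comparison. Of all 8 members, 5 were higher in mutant UGS at E16.5 (54.2% of all rows were) and 8 at E18.5 (69.5% of all rows). At E16.5, 0 of the 7 remaining members were at least 2-fold higher in mutant UGS (0.481% of all rows were) and 2 were at least 2-fold lower (1.17% of all rows), namely *Hba-x* and *Hbb-y*. At E18.5, 7 were at least 2-fold higher (15.1% of all rows) and 0 lower (2.89%). In wild type, 7 were at least 2-fold lower at E18.5 than at E16.5 (16.8% of all rows) and 0 higher (2.7%). In the mutant, 2 were higher (1.35% of all rows) and 1 lower (0.571%). *Hba-x* and *Hbb-y* passed the filter in each comparison through the group in which they were high, and *Slc4a1* did so in both comparisons with the E18.5 wild type library, so that these counts are given as description and not as support.

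**Figure D2:**
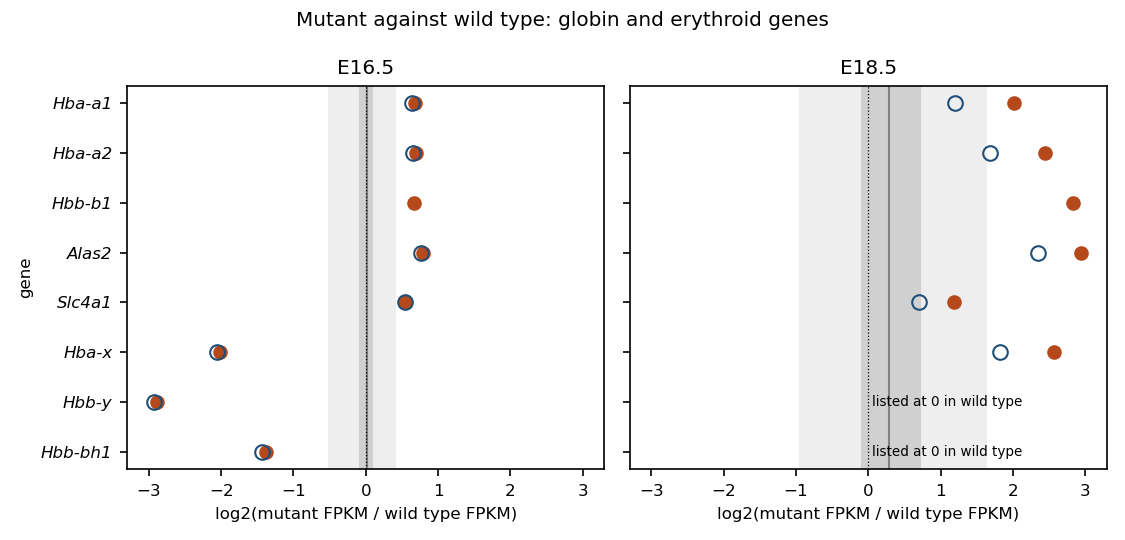
Log2 ratio of mutant to wild type FPKM at E16.5 (left) and E18.5 (right) for each gene (filled points) and after subtraction of the length and GC trend (open points); dark and light bands hold the middle 50% and 95% of all rows that reached 1 FPKM in both libraries, and the grey line is their median. At E16.5 the points split to both sides of the bands, and at E18.5 every plotted point is right of the median, with *Slc4a1* the nearest to it.

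Ratios within a library do not depend on scaling between libraries. Embryonic globins made up 2.39, 0.301, 0.457 and 1.40 of every 10000 FPKM of the named globin rows. These values are for E16.5 wild type, E16.5 mutant, E18.5 wild type and E18.5 mutant UGS, in that order. Of the estimated reads of the named rows, embryonic globins were 0.0222% (exact 95% interval 0.0182 to 0.0268) in E16.5 wild type UGS. In E16.5 mutant UGS they were 0.00279% (0.00168 to 0.00435). At E18.5 the shares were 0.00412% (0.000849 to 0.0120) in wild type and 0.0133% (0.0106 to 0.0165) in mutant UGS. The E16.5 intervals did not overlap, whereas those of the E18.5 libraries did, as the wild type share rested on 3 reads. With the 2 unnamed rows of the beta-globin cluster counted as well, the FPKM shares were 0.0106%, 0.00130%, 0.00190% and 0.00654% in the same order. The intervals do not cover that choice of rows. The named globin rows together were 3.88%, 5.81%, 1.56% and 5.63% of the summed FPKM of their libraries, and 8.71%, 13.5%, 3.74% and 12.1% with 2 unnamed rows of the beta-globin cluster.

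The ratio of *Hba-a1* to *Hba-a2* was 1.55, 1.53 and 1.54 in the first 3 libraries of this order and 1.14 in E18.5 mutant UGS. These near-identical genes share 439 of the 650 stretches of 50 bases in the annotated *Hba-a1* transcript, or 67.5%, so the split of reads between them is uncertain and their sum is the firmer value. No stretch of 50 bases was shared between the adult-type and the embryonic transcripts compared, *Hba-a1* with *Hba-x*, or *Hbb-bs* with *Hbb-y* and *Hbb-bh1*. The ratio of the adult alpha sum to *Alas2* was 245, 228, 436 and 261, highest in E18.5 wild type UGS. The ratio of *Alas2* to *Slc4a1* was 15.7, 18.8 and 14.6 and then 49.1 in E18.5 mutant UGS, the library in which *Slc4a1* was lowest beside *Alas2*.

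**Figure D3:**
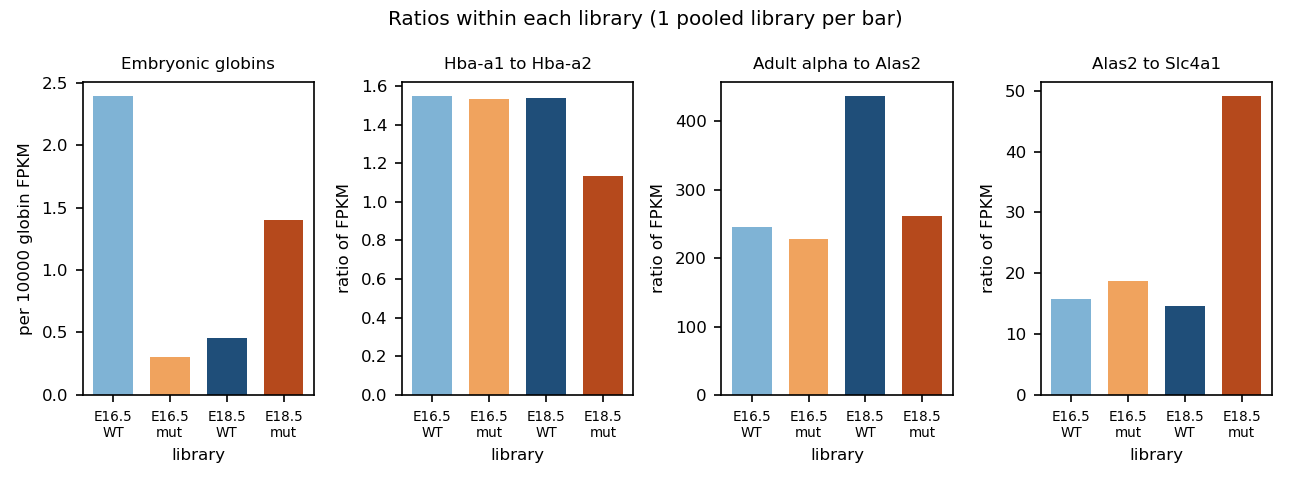
Within-library values, 1 bar per pooled library and each axis from 0: embryonic globins per 10000 FPKM of the named globin rows, and 3 FPKM ratios. These are *Hba-a1* to *Hba-a2*, the adult alpha sum to *Alas2*, and *Alas2* to *Slc4a1*. The embryonic share is highest in E16.5 wild type at 2.39, and the E18.5 mutant library stands apart in *Hba-a1* to *Hba-a2* at 1.14 and in *Alas2* to *Slc4a1* at 49.1.

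The named globin rows do not hold all beta-globin signal. LOC100503686, an unnamed row on chromosome 7 at 110975048 to 110991250, had 19626, 33710, 7476 and 28246 FPKM, the highest of all rows in 3 libraries and rank 3 in E18.5 wild type UGS. LOC100503605, at 110967782 to 110981610, had 2592, 4382, 733 and 4237 FPKM, and its gene number is that of *Hbb-bs* in the RefSeq table. Both rows had the library order of *Hba-a1*, and at E16.5 they were 1.72-fold and 1.69-fold higher in mutant UGS. At E18.5 LOC100503686 was 3.78-fold and LOC100503605 5.78-fold higher, against 7.14-fold for the *Hbb-b1* row. Their spans overlap each other, and that of LOC100503686 overlaps *Hbb-bh1*, so the split of reads among them is uncertain.

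The row named *Hbb-b1* starts 39226 bases before *Hbb-y* in the deposited positions, and *Hbb-bt* starts 39230 bases before *Hbb-y* in GRCm38. LOC100503686 starts 14006 bases after the *Hbb-b1* row, and *Hbb-bs* starts 13999 bases after *Hbb-bt*. The build of the deposited positions is not given in the sources used here, and inbred mouse strains carry different adult beta-globin haplotypes. With the named rows alone, the alpha to beta ratio was 4.33, 4.39, 8.26 and 5.29, and with both unnamed rows it was 0.568, 0.539, 0.590 and 0.646. The level of E18.5 wild type UGS, which stood out at 8.26, was thus between those of the other libraries when the unnamed rows were counted.

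**Figure D4:**
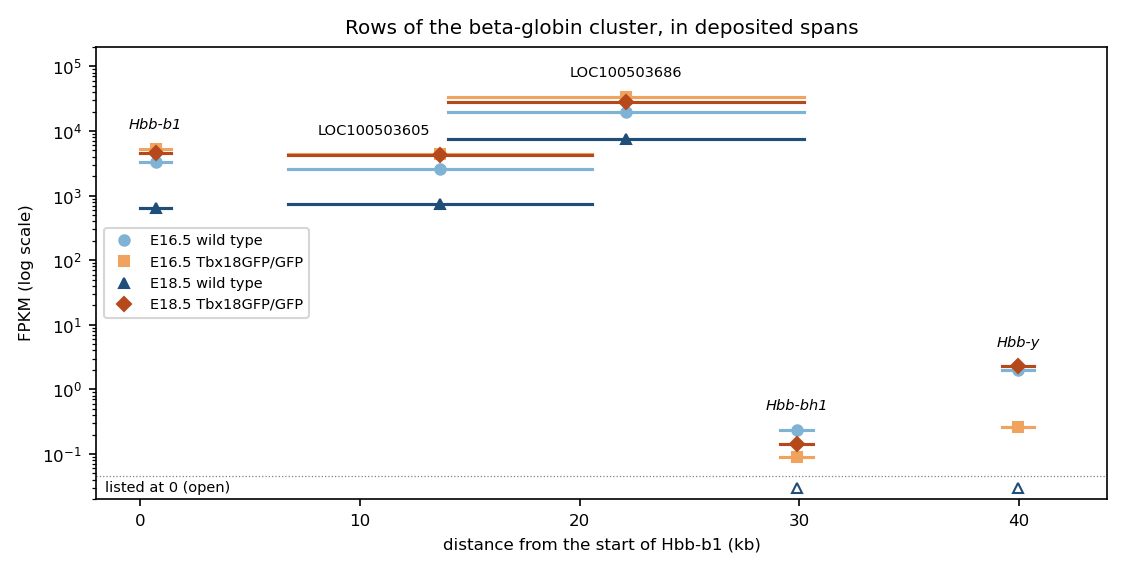
FPKM (log scale) of rows in the beta-globin cluster against distance in kb from the start of *Hbb-b1*; horizontal bars span each row as deposited, colours and symbols mark the 4 libraries, and open triangles are values listed at 0. LOC100503686 overlaps *Hbb-bh1* and reaches 33710 FPKM, whereas *Hbb-bh1* has at most 0.237 FPKM.

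The rows whose profile over the 4 libraries was most like the mean of the adult-type globins were found among 10876 rows with at least 5 FPKM in one library, by the root mean square difference of centred log2 values. LOC100503605 was nearest, at 0.0451. *Gm6747* followed at 0.0864 with 16.6, 23.9, 4.17 and 22.1 FPKM, then LOC100504397 at 0.108 and *Col8a2* at 0.126 with 19.1, 28.2, 5.79 and 25.1 FPKM. The next 6 rows, *Tspan4*, *Snora73b*, *Bst2*, *Tspo*, *Il1f9* and LOC100503122, lay between 0.129 and 0.178. Among other members *Alas2* lay at 0.240, *Slc4a1* at 0.644, *Hbb-bh1* at 0.677, *Hba-x* at 0.910 and *Hbb-y* at 1.36. *Alas2* was thus nearer to the adult-type profile than any embryonic globin, but less near than every non-member row named here. The adult-type globins themselves lay at 0.157 for *Hba-a1*, 0.158 for *Hba-a2* and 0.251 for *Hbb-b1*.

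Other genes of red cell formation were summarised by list, to be read against all rows, of which 54.2% were higher in mutant UGS at E16.5 and 69.5% at E18.5, with 15.1% at least 2-fold at E18.5. Of 15 genes of heme synthesis and mitochondrial heme transport, 14 had at least 1 FPKM, and 12 of these were higher in mutant UGS at E16.5, with 0 at 2-fold and a median log2 ratio of 0.06, against 0.01 over all rows. At E18.5, 13 of 14 were higher, 7 at least 2-fold, with a median of 0.91 against 0.30 over all rows. *Alad*, which makes porphobilinogen from the product of *Alas2*, had 41.9, 61.9, 23.5 and 27.9 FPKM. *Fech*, which inserts iron into heme, had 24.4, 28.8, 25.8 and 26.5 FPKM, nearly level across the libraries. *Tmem14c*, needed for porphyrin transport into mitochondria, had 40.1, 40.6, 16.9 and 43.0 FPKM and was low in E18.5 wild type UGS alone.

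Genes of the red cell membrane and skeleton were divided at E16.5. Of 20 listed, 12 had at least 1 FPKM there, and 5 of these were higher and 7 lower in mutant UGS, with a median log2 ratio of -0.11, and at E18.5 8 of 11 were higher, 1 of them 2-fold, with a median of 0.21, which was -0.08 relative to all rows. The E18.5 share of higher genes was thus near that of all rows. The genes of this list with the highest FPKM are also used outside red cells. *Epb4.1*, for the skeleton protein 4.1, had 33.3, 36.2, 24.0 and 29.9 FPKM. *Gypc* had 13.2 to 13.5 FPKM in all 4 libraries, and the water channel gene *Aqp1* had 9.92, 9.08, 8.34 and 22.3 FPKM.

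Among erythroid transcription factors, 8 of 10 were higher at E16.5, 0 of them 2-fold (median 0.09), and 4 of 9 at E18.5, 1 of them 2-fold (median -0.14, or -0.43 relative to all rows). The best expressed, *Ldb1*, *E2f4* and *Lmo2*, had 47.7 to 73.7, 18.2 to 20.7 and 7.79 to 13.7 FPKM and act in many tissues. The next factors were picked once their values were known. *Gata1*, a master regulator of the erythroid line, had 0.0687, 0.158, 0 and 0.0599 FPKM. *Klf1*, which acts at the adult beta-globin promoter, had 0.675, 0.884, 0.522 and 0.347 FPKM. These levels were far under those of the globins in the same libraries.

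Of the genes for erythropoietin response and iron uptake, 4 of 6 were higher in mutant UGS at E16.5 (median 0.13). At E18.5, 4 of 5 were higher, 1 of them 2-fold (median 0.55, or 0.26 relative to all rows). That gene was *Ftl1*, the ferritin light chain, with 511, 579, 103 and 555 FPKM, whereas the heavy chain gene *Fth1* had 459, 510, 498 and 493 FPKM. *Tfrc*, the transferrin receptor, had 14.8, 15.9, 11.2 and 15.2 FPKM. Of red cell enzymes and late maturation genes, 12 of 15 were higher at E16.5, 0 of them 2-fold (median 0.17). At E18.5, 13 of 15 were higher, 3 of them 2-fold, and 1 was 2-fold lower (2.89% of all rows were). The median was 0.49, or 0.20 relative to all rows. *Prdx2*, a peroxidase abundant in red cells, had 260, 278, 92.8 and 250 FPKM, *Gpx1* had 118, 135, 77.1 and 124, and *Bnip3l*, needed for removal of mitochondria from reticulocytes, had 47.7, 53.5, 38.7 and 52.6. Hemoglobin and heme clearance genes were 2 higher and 2 lower at E16.5 (median 0.05). All 4 were higher at E18.5, 1 of them 2-fold (median 0.64, or 0.36 relative to all rows). Of these, the iron exporter gene *Slc40a1* had 13.6, 18.8, 5.43 and 10.01 FPKM.

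Markers of other cell types moved with genotype, and their part in the globin differences was not tested. Of 10 hepatocyte markers, 7 had at least 1 FPKM at E16.5. All 7 were at least 2-fold higher in mutant UGS (0.481% of all rows were), where adult-type globins were also higher. *Afp*, *Apoa1*, *Apoa2*, *Fgg* and *Ahsg* passed this filter only through the mutant library, in which they were high. At E18.5, 3 of 4 were at least 2-fold lower in mutant UGS (2.89% of all rows), where the globins were higher. These 3, *Alb*, *Apoa1* and *Ahsg*, passed only through the wild type library, so the hepatocyte counts are description and not support. The summed hepatocyte level was 4.31, 21.02, 12.3 and 5.80 FPKM, with no marker at 0, and *Alb* had 1.01, 7.13, 2.92 and 0.626 FPKM. The fetal liver is the main site of red cell formation at these stages, and whether liver RNA entered any of these libraries was not tested.

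Of 12 neutrophil markers, 7 had at least 1 FPKM at E16.5. All 7 were higher in mutant UGS (54.2% of all rows were) and 6 were at least 2-fold higher (0.481% of all rows). *Ngp*, *Camp* and *Ltf* passed the filter only through the mutant library, in which they were high, so these counts are description and not support. At E18.5 all 4 with at least 1 FPKM were lower, 0 of them 2-fold. The summed level was 13.2, 84.3, 15.2 and 10.7 FPKM, and 1 marker was listed at 0 in each library except E16.5 mutant. *S100a8* had 4.57, 31.1, 6.39 and 3.54 FPKM. Of the 13 megakaryocyte and platelet markers, only 3 had at least 1 FPKM, with 1 higher and 2 lower at E16.5. All 3 were at least 2-fold higher at E18.5 (15.1% of all rows), where *Gp1bb* passed the filter only through the mutant library. Their list summed to 17.8, 19.2, 13.8 and 30.9 FPKM.

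The markers of vessels and macrophages differed less than those of hepatocytes and neutrophils at E16.5. All 12 endothelial markers were higher in mutant UGS at E16.5 (54.2% of all rows were), 0 of them 2-fold (0.481% of all rows), with a median of 0.21. Their sum was 174, 201, 161 and 189 FPKM. At E18.5, 8 of 12 were higher, against 69.5% of all rows, and 4 of these were at least 2-fold higher, against 15.1%. The list's median was 0.46, or 0.17 relative to all rows. *Pecam1*, of the endothelial junction, had 25.1, 29.1, 30.6 and 28.9 FPKM. The 4 genes at 2-fold, *Cldn5*, *Esam*, *Tie1* and *Egfl7*, were each lowest in E18.5 wild type UGS, but they were picked by their E18.5 ratio. *Cldn5* had 8.57, 10.4, 2.84 and 9.68 FPKM. In contrast, *Pecam1*, *Cdh5*, *Emcn* and *Flt1* were highest in E18.5 wild type UGS, and *Emcn* had 16.4, 20.9, 32.5 and 19.5 FPKM. All 11 macrophage markers with at least 1 FPKM were higher at E16.5 (54.2% of all rows were), with a median of 0.23. At E18.5, 10 of 11 were higher (69.5% of all rows), with a median of 0.21, or -0.08 relative to all rows. The list summed to 74.6, 91.8, 68.5 and 91.5 FPKM. Of the macrophage genes, 3 were at least 2-fold higher at E18.5 (15.1% of all rows were), namely *C1qa*, *C1qc* and *Cx3cr1*. The last of these, like the 4 endothelial genes, was named once its values were known.

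**Figure D5:**
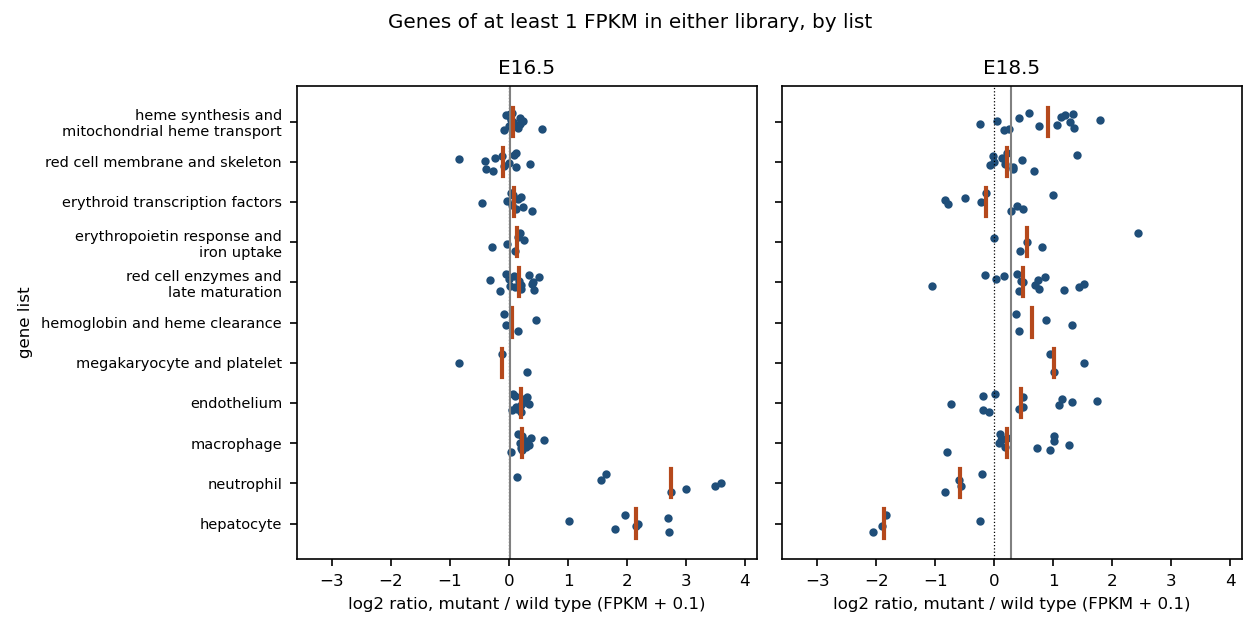
Log2 ratio of mutant to wild type (FPKM + 0.1) at E16.5 (left) and E18.5 (right), 1 point per gene with at least 1 FPKM in either library, by gene list; the orange bar is the list's median, the grey line the median of all rows and the dotted line equal levels. The medians of the neutrophil and hepatocyte markers lie right of those of the other lists at E16.5, at 2.74 and 2.15. At E18.5 they lie left of the other medians, at -0.58 and -1.87. Single genes of these lists overlap with genes of other lists.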

How the data were processed

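Whole UGS was dissected from male embryos, RNA of 3 embryos was pooled per group, and stranded mRNA libraries were prepared. The submitters' processing notes name CASAVA 1.8.2, Trimmomatic 0.30, TopHat2 2.1.0 and Cufflinks 2.2.1. The authors deposited FPKM from Cufflinks for 25819 rows, 1 column per library, with no further scaling stated. The genome build is not given in the sources used here. Positions, 1-based, follow the deposited table, except for promoters, which come from RefSeq (GRCm38.p6). Of the 10 listed members, 8 were matched by symbol.

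Ratios of FPKM were taken without a pseudocount, and medians of lists used log2(FPKM + 0.1), which understates differences of low genes. Rows needed at least 1 FPKM in either library to be counted at 2-fold. Members and lists were chosen with earlier results of these data known. The genes named are the members, the 3 genes of highest mean FPKM in each other list, any gene 2-fold different in one direction at both stages, and the 10 rows most like the adult-type globins, and not all are given in the text. Reads of embryonic globins were estimated from the FPKM of single reads, with an effective length chosen so that all 4 values lay within 0.05 of whole numbers. The other read estimates used annotated lengths less 200 bases, with 400 bases assumed for *Hbb-b1*. Intervals are exact at 95% (binomial, or conditional binomial for ratios). Transcript length and GC content were matched by symbol for 93.7% of rows that reached 1 FPKM in a library, and a lowess trend (span 0.3) on both was subtracted as an alternative. Of these steps, only the 2-fold threshold and the trend subtraction were tested on simulated data. Computation used scipy 1.17.1, numpy 2.4.6, statsmodels 0.14.6, pandas 2.3.3 and matplotlib 3.10.9 under Python 3.11.15.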

Additional observations from a re-analysis of the deposited data

Results flagged for a closer look

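*Hba-x* and *Hbb-y* differed between genotypes in opposite directions at the 2 stages. This difference between stages was not tested, as each group was 1 pooled library. *Hba-x* in mutant minus wild type UGS was -1.55 FPKM at E16.5 and 1.31 FPKM at E18.5. *Hbb-y* gave -1.70 FPKM at E16.5 and 2.26 FPKM at E18.5, where wild type UGS was listed at 0. *Hbb-bh1* gave -0.146 FPKM at E16.5 and 0.145 FPKM at E18.5, values of 6 reads or fewer in every library, for which no difference was detectable at either stage. The adult-type globins, *Alas2* and *Slc4a1* were higher in mutant UGS at both stages.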

How the results depend on the processing

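No paired analysis was possible because each group was 1 library, and no replicate could be left out. The adult-type globin sum kept its direction in each comparison except that between mutant stages under the alternatives run. At E16.5 its log2 ratio of mutant to wild type, 0.69 as deposited, was 0.58 with library sums made equal, 0.61 with the globin rows left out of these sums, 0.67 centred on the median, 0.66 with upper quartile scaling, 0.64 with the length and GC trend subtracted (alpha rows only) and 0.74 with both unnamed beta-cluster rows. At E18.5, from 2.28, the same settings gave 1.86, 1.92, 1.99, 2.04, 1.41 and 2.11, the median of the adult-type rows gave 2.44, alpha rows alone 2.196, and E18.5 mutant over E16.5 wild type 0.67. Between stages in wild type, from -1.61, they gave -1.32, -1.35, -1.28, -1.35, -0.67 and -1.51, the median -1.48 and alpha rows alone -1.48. Between stages in the mutant, from -0.018, they gave -0.044, -0.046, 0.042, 0.025, 0.061 and -0.14, the median -0.16 and alpha rows alone 0.028. The settings with unnamed rows, with alpha rows alone and with the E16.5 wild type library were chosen after seeing the data.

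The count of members at least 2-fold different fell from 2 to 0 at E16.5, from 7 to 4 at E18.5, from 7 to 4 between stages in wild type and from 3 to 1 between stages in the mutant both with a minimum of 5 FPKM in either library and with one of 1 FPKM in both, since these filters remove low members. With the trend subtracted it was 4 between stages in wild type, where *Hbb-b1* was left out for want of an annotated length and both alpha genes were under 2-fold. With both unnamed rows the embryonic share of globin FPKM was 0.0106%, 0.00130%, 0.00190% and 0.00654% in E16.5 wild type, E16.5 mutant, E18.5 wild type and E18.5 mutant UGS, from 0.0239%, 0.00301%, 0.00457% and 0.0140%, and the alpha to beta ratio was 0.568, 0.539, 0.590 and 0.646, from 4.33, 4.39, 8.26 and 5.29, because the unnamed rows enlarge the beta sum. Of 240 alternative log2 ratios of single members and unnamed rows, 106 moved beyond a set margin, as did 33 of 152 alternative list medians. Of those past 2-fold, 0 changed sign. For single ratios that outcome was fixed, because a pseudocount cannot change a sign and every scaling or trend shift was under 2-fold. Depth limits the embryonic globins, with 3 reads in all in E18.5 wild type UGS.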

Other observations

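Globins outside the red cell line differed among themselves. *Cygb*, for cytoglobin of fibroblast-like cells, had 17.97, 17.5, 17.3 and 19 FPKM in E16.5 wild type, E16.5 mutant, E18.5 wild type and E18.5 mutant UGS. *Mb*, for myoglobin of muscle, had 1.70, 0.714, 0.593 and 0.530 FPKM, highest in E16.5 wild type UGS. *Ngb*, for neuroglobin, had 0.368, 0.474, 0.0982 and 0.721 FPKM, the library order of *Hba-a2* at levels under 1 FPKM. The theta-type alpha-cluster rows *Hbq1* and *F830116E18Rik* had 0.367 to 0.829 and 0.258 to 0.773 FPKM, both highest in E16.5 mutant UGS.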
